A study of Mus musculus with 8 samples.

Results

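Hepatocyte nuclear factor 4 alpha (Hnf4a), the forkhead factors Foxa1, Foxa2 and Foxa3, the CCAAT/enhancer binding protein Cebpa and the nuclear receptors Nr1h4 (FXR), Nr5a2 (LRH-1), Nr1i2 (PXR) and Nr1i3 (CAR) are 9 of the transcription factors that set the gene programme of the hepatocyte. They were taken by name, 9 genes of the 54309 in the count table, through the Ensembl identifiers and symbols that the authors' deposited comparison table pairs, and all 9 passed the filter on low counts. The factors bind one another's promoters and enhancers in a self-reinforcing network, in which HNF4A acts as a constitutive activator, the FOXA proteins open chromatin and C/EBPα holds the mature metabolic state. FXR senses bile acids and adjusts their synthesis and export, LRH-1 drives bile acid and cholesterol handling genes, and PXR and CAR switch on drug-metabolising enzymes when foreign compounds arrive. In fatty liver disease this network and its metabolic targets have been studied as a measure of how far hepatocytes keep their adult state.

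The libraries came from whole liver of male C57BL/6J mice, all kept for 16 weeks on a fructose, palmitate and cholesterol diet that provokes NASH, the inflammatory form of fatty liver disease. The antiCD47 libraries (4) came from mice injected intraperitoneally with an antibody to CD47, a cell surface protein that restrains engulfment by macrophages, at 200 µg per mouse between weeks 8 and 16. The IgG libraries (4) came from mice injected over the same weeks with IgG. No group without the diet or without an injection was analysed here, so every value is from a liver on the diet. Polyadenylated RNA was sequenced, the labels do not tie a library to an animal, and p-values measure the spread between these libraries, which may be technical. In whole liver RNA, fewer hepatocytes and less RNA per hepatocyte cannot be told apart.

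Promoters of the 9 genes are given here for the 3 factors whose transcripts passed the test below, as RefSeq lists them on GRCm38.p6, each with 250 bases before and 50 bases after the start site. The count table was made on another build, GRCm39 per the submitters' processing notes, so these positions belong to the promoter sequences only. Capitals mark matches to the motifs searched. Hnf4a has 2 listed promoters, and the one shown is the downstream one, which adult hepatocytes use, at chr2:163546905-163547204 on the plus strand. It held none of the 7 motifs. The Foxa2 promoter shown is the first of 3 listed, at chr2:148046920-148047219 on the minus strand, with a match to the HNF6 motif ATCAAT, read as ATTGAT, at -213 from the start site. The Foxa3 promoter, at chr7:19023490-19023789 on the minus strand, also held none of the 7 motifs.
Hnf4a promoter 2: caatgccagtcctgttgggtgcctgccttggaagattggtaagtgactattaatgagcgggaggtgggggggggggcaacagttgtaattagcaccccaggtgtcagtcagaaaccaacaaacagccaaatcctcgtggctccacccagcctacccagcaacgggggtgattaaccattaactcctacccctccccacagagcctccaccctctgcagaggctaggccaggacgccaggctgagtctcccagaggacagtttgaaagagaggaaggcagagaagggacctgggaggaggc
Foxa2 promoter 1: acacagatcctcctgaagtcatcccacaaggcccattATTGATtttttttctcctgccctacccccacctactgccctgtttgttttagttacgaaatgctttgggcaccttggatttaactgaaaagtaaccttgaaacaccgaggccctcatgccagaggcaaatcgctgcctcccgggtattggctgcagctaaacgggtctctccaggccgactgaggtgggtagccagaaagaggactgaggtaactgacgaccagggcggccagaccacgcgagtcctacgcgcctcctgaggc
Foxa3 promoter: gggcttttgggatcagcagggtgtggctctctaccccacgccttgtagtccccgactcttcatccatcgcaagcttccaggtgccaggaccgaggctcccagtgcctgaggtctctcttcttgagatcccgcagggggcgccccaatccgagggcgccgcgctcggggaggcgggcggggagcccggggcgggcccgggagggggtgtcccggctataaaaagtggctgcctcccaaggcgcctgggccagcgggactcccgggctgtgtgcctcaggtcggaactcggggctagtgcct

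Across the 13 listed promoters of the 9 factors, the nuclear receptor hexamer AGGTCA was found in 2 (of Nr1h4 and Nr5a2), beside 16.3% of all 32851 listed mouse promoters of the same length, and the HNF6 motif ATCAAT in 2 (of Hnf4a and Foxa2), beside 7.54% of all. One match each was found for the FOXA motif TGTTTAC (Foxa1, 3.65% of all promoters), the C/EBP motif TTGCNNAA (Nr5a2, 10.8% of all) and the E-box CACGTG (Nr1i3, 7.15% of all). The HNF4 motif CAAAGTCCA (0.475% of all promoters) and the LRH-1 motif CAAGGTCA (1.56% of all), which contains AGGTCA, were found in 0 of the 13. Both strands were searched for every motif, and a match is a description of letters, not of binding. Base composition differed widely, with 69% G and C in the Foxa3 promoter shown, 57.3% in that of Hnf4a and 54.3% in that of Foxa2.

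Total counts were between 43691472 and 55477484 per library. Lowest and highest counts of any of the 9 factors in a library were 487 (Foxa1) and 46726 (Hnf4a), so counting error was small beside the spread between libraries. With edgeR's quasi-likelihood test and Benjamini-Hochberg adjustment over 15472 genes tested, 1678 genes passed an adjusted p of 0.05, 842 higher and 836 lower in antiCD47 livers. Marker transcripts of several other liver cell types differed between the treatments. Summed CPM (gene counts on the usual CPM scale, divided by the TMM-scaled library size) of 7 Kupffer cell markers was 182 to 394 in antiCD47 livers and 64.4 to 146 in IgG livers, with 6 of 7 higher. All 5 tested neutrophil markers were higher (13.8 to 30.9 CPM in antiCD47 livers, 5.91 to 8.09 in IgG livers) and Ly6g had at most 6 counts, and all 5 tested erythroid markers were higher (782 to 1362 CPM in antiCD47 livers, 288 to 442 in IgG livers). Cholangiocyte markers were lower in 9 of 10 (110 to 355 CPM in antiCD47 livers, 434 to 599 in IgG livers), and of 8 stellate cell and fibroblast markers the collagen genes Col1a1, Col1a2 and Col3a1 were lower and the other 5 did not pass (480 to 680 CPM in antiCD47 livers, 769 to 1109 in IgG livers). None of 7 hepatocyte markers passed, at 62404 to 74474 CPM in antiCD47 livers and 59726 to 64577 CPM in IgG livers. Alb alone made up most of that sum, at 43202 to 52171 CPM in antiCD47 livers and 41018 to 44610 CPM in IgG livers. None of 6 endothelial markers passed, at 135 to 157 CPM in antiCD47 livers and 125 to 170 CPM in IgG livers. Of 7 pancreas and gut markers, Prss1 had 0 counts and Cpa1, Ctrb1 and Cdx2 at most 3. The 3 tested ones summed to 128 to 184 CPM in antiCD47 livers and 155 to 183 CPM in IgG livers. Fabp2 made up most of that sum, at 123 to 175 CPM in antiCD47 livers and 148 to 172 CPM in IgG livers. Cela1 reached at most 9.87 CPM and Vil1 at most 1.81 CPM in any library.

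Of the 9 factors, Hnf4a and Foxa3 were higher and Foxa2 was lower in antiCD47 livers, and 6 did not pass the test. That is 3 of 9, beside 10.8% of all genes tested, of which 5.44% were higher and 5.4% lower. The median log2 fold change of the 9 was -0.05, beside -0.01 over all genes tested. Libraries of the treatments did not overlap for 2 of the 9 (Foxa3 and Foxa2), beside 19.6% of all genes.

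**Figure D1:**
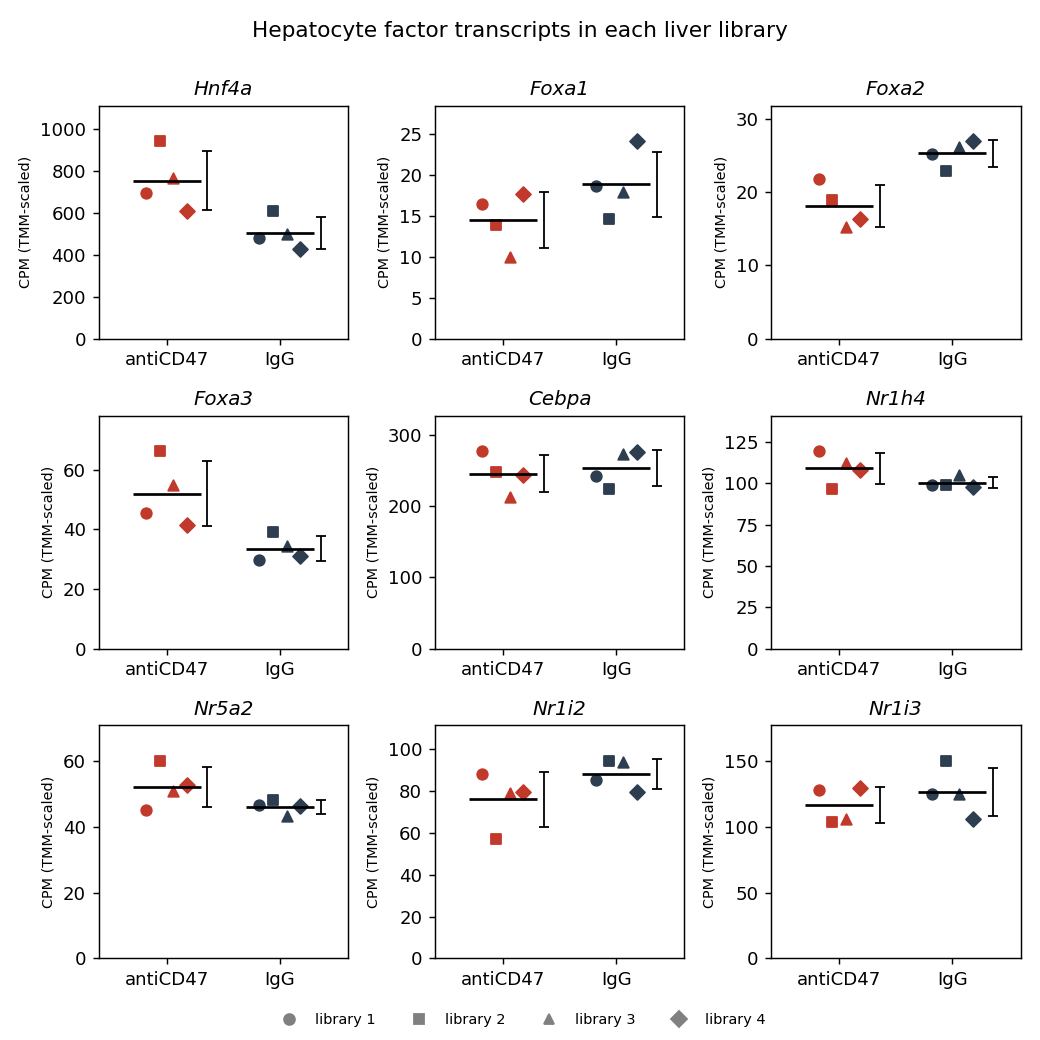
TMM-scaled CPM (vertical axis, from 0) of each of the 9 factors in 4 antiCD47 and 4 IgG liver libraries, with marker shape giving the library number, a horizontal line the mean and a bar at the side the SD. Foxa3 sits higher and Foxa2 lower in every antiCD47 library than in any IgG library, Hnf4a touches the highest IgG library at its lowest antiCD47 one, and the other 6 overlap.

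Hnf4a encodes the nuclear receptor that binds a large share of hepatocyte promoters and is required for liver function in adult mice. Its transcript was measured at 696, 941, 764 and 609 CPM in antiCD47 livers, against 481, 609, 499 and 428 CPM in IgG livers. The lowest antiCD47 library and the highest IgG library met at 609 CPM, and the other 3 antiCD47 libraries were above all 4 IgG libraries. Means were 752 ± 141 CPM in antiCD47 livers and 504 ± 76.1 CPM in IgG livers (SD, n = 4 each), a 1.49-fold difference. The log2 fold change was 0.58 ± 0.15 (SE, 95% interval 0.25 to 0.90; adjusted p = 0.0382, edgeR). An antisense gene, Hnf4aos, overlaps the locus and had 17 to 52 counts per library, where Hnf4a had at least 22865. How reads of that overlap were divided was not tested. The adjusted p (edgeR) was 0.0704 without antiCD47 library 2, 0.101 without antiCD47 library 3, 0.0989 without IgG library 1, 0.101 without IgG library 3 and 0.103 without IgG library 4, with the log2 fold change between 0.45 and 0.68 over the 8 fits that each left out 1 library.

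The 3 FOXA factors, which share a forkhead DNA-binding domain and overlapping sites in liver chromatin, did not move together. Foxa3, the form most abundant in adult liver, was measured at 45.6, 66.3, 54.8 and 41.4 CPM in antiCD47 livers, against 29.6, 39.2, 34.6 and 30.9 CPM in IgG livers. Every antiCD47 library was above every IgG library, with the closest pair at 41.4 and 39.2 CPM. Means were 52.0 ± 11.03 CPM in antiCD47 livers and 33.6 ± 4.30 CPM in IgG livers (SD, n = 4 each), a 1.55-fold difference with a log2 fold change of 0.63 ± 0.15 (SE, 95% interval 0.30 to 0.96; adjusted p = 0.0317, edgeR). The adjusted p (edgeR) was 0.0519 without antiCD47 library 2, 0.0942 without antiCD47 library 3, 0.0875 without IgG library 1, 0.0819 without IgG library 3 and 0.0937 without IgG library 4, and the log2 fold change stayed between 0.49 and 0.73 in these 8 fits.

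Foxa2, which in liver is tied to the fasting response and to bile acid transport and is also made by bile duct cells, went the other way. It was measured at 21.7, 18.97, 15.2 and 16.4 CPM in antiCD47 livers, against 25.1, 22.8, 26.2 and 26.9 CPM in IgG livers. All 4 antiCD47 libraries were below all 4 IgG libraries, and the IgG libraries lay closer together. Means were 18.1 ± 2.89 CPM in antiCD47 livers and 25.3 ± 1.78 CPM in IgG livers (SD, n = 4 each), and the log2 fold change was -0.48 ± 0.11 (SE, 95% interval -0.73 to -0.23; adjusted p = 0.0313, edgeR). The adjusted p (edgeR) was 0.0527 without antiCD47 library 2, 0.0903 without antiCD47 library 3, 0.0531 without antiCD47 library 4, 0.0794 without IgG library 1, 0.0890 without IgG library 3 and 0.0916 without IgG library 4. The log2 fold change stayed between -0.58 and -0.41 in the fits that each left out 1 library. Cholangiocyte markers, which summed to 110 to 355 CPM in antiCD47 livers and 434 to 599 CPM in IgG livers, were lower alongside Foxa2, and their part in the result was not tested. Spp1 alone made up most of that sum, at 78.4 to 301 CPM in antiCD47 livers and 358 to 497 CPM in IgG livers, and 8 of the other 9 markers were also lower.

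Foxa1, the pioneer factor that acts with Foxa2 in liver development, was measured at 16.4, 13.8, 9.97 and 17.7 CPM in antiCD47 livers, against 18.7, 14.6, 17.9 and 24.1 CPM in IgG livers. The groups overlapped, and antiCD47 library 3 was the lowest of the 8. The log2 fold change was -0.38 ± 0.19 (SE, 95% interval -0.81 to 0.05; adjusted p = 0.198, edgeR), so the interval holds differences as large as that of Foxa2.

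Set per kb of longest transcript, the 3 FOXA transcripts summed to 38.6 ± 5.16 CPM per kb in antiCD47 livers and 34.3 ± 1.41 CPM per kb in IgG livers (SD, n = 4 each). Foxa3 made up 65.8 ± 6.82% of that sum in antiCD47 livers and 48.1 ± 5.58% in IgG livers. Foxa2 made up 22.2 ± 3.65% in antiCD47 livers and 34.7 ± 2.498% in IgG livers, and Foxa1 12.01 ± 3.76% in antiCD47 livers and 17.2 ± 3.40% in IgG livers. Foxa3 over Foxa2, per kb, was 2.19, 3.65, 3.75 and 2.65 in antiCD47 libraries 1 to 4, against 1.23, 1.80, 1.38 and 1.20 in IgG libraries 1 to 4. The ranges of this ratio did not overlap, but the pair was chosen after its members' values were seen, so the ratio is a description without a test.

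**Figure D2:**
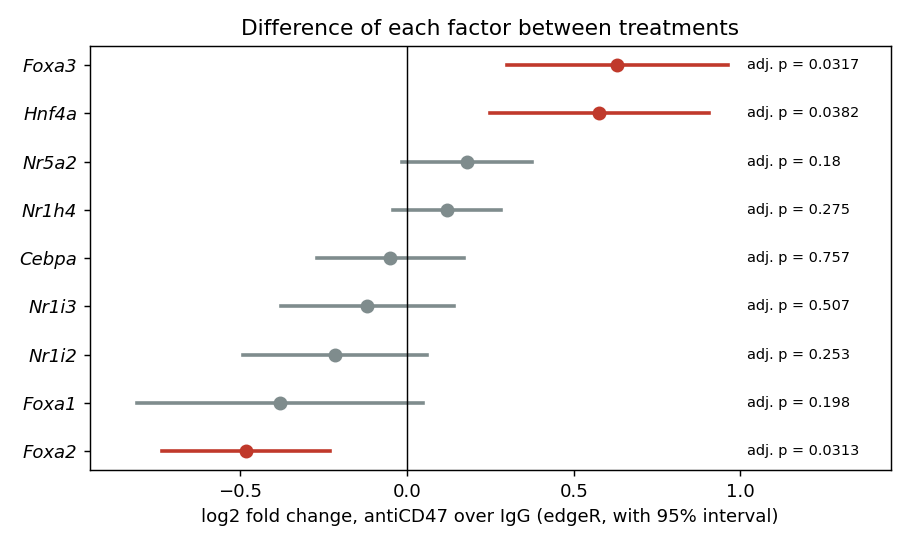
Log2 fold change of antiCD47 over IgG livers (horizontal axis) for each of the 9 factors, with the 95% interval and the adjusted p from edgeR at the right, and factors past an adjusted p of 0.05 in red. Foxa3 and Hnf4a lie right of 0 and Foxa2 left of it, and the intervals of the other 6 cross 0.

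Cebpa, the basic leucine zipper factor of glucose, lipid and urea cycle genes, was measured at 277, 248, 213 and 244 CPM in antiCD47 livers, against 242, 224, 274 and 277 CPM in IgG livers. Both treatments spanned much the same range, and the log2 fold change was -0.05 ± 0.10 (SE, 95% interval -0.27 to 0.17; adjusted p = 0.757, edgeR). An antisense gene at the Cebpa locus, Gm45091, had 13 to 35 counts.

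None of the 4 nuclear receptors beside Hnf4a passed the test. Nr1h4, the bile acid receptor FXR, was measured at 120, 96.8, 112 and 108 CPM in antiCD47 livers, against 99.1, 99.3, 105 and 98.05 CPM in IgG livers. The antiCD47 libraries held both the highest and the lowest value of the 8, with means of 109 ± 9.51 CPM in antiCD47 livers and 100 ± 3.26 CPM in IgG livers (SD, n = 4 each). The log2 fold change of Nr1h4 was 0.12 ± 0.07 (SE, 95% interval -0.04 to 0.28; adjusted p = 0.275, edgeR). Nr5a2, the orphan receptor LRH-1, was measured at 45.1, 59.9, 51.0 and 52.5 CPM in antiCD47 livers, against 46.6, 48.1, 43.2 and 46.2 CPM in IgG livers. AntiCD47 libraries 2, 3 and 4 were above all IgG libraries and antiCD47 library 1 was within them. The log2 fold change of Nr5a2 was 0.18 ± 0.09 (SE, 95% interval -0.01 to 0.37; adjusted p = 0.180, edgeR), and without antiCD47 library 1 it was 0.24, with an adjusted p of 0.0478.

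The xenobiotic receptors Nr1i2 and Nr1i3 had negative fold changes that did not pass. Nr1i2, PXR, was measured at 87.9, 57.1, 79.2 and 79.5 CPM in antiCD47 livers, against 85.1, 94.3, 93.9 and 79.4 CPM in IgG livers. AntiCD47 library 2 was well below the other 7, and the log2 fold change was -0.22 ± 0.12 (SE, 95% interval -0.49 to 0.06; adjusted p = 0.253, edgeR). Nr1i3, CAR, was measured at 128, 104, 106 and 130 CPM in antiCD47 livers, against 125, 150, 125 and 106 CPM in IgG livers. Its groups overlapped over most of their range, with a log2 fold change of -0.12 ± 0.12 (SE, 95% interval -0.38 to 0.14; adjusted p = 0.507, edgeR). The Nr1i3 gene overlaps Tomm40l on the opposite strand, which had 307 to 581 counts, and no source used here says whether the counting used strand. The 95% intervals of Cebpa, Nr1h4, Nr5a2, Nr1i2 and Nr1i3 all lay between -0.49 and 0.37 on the log2 scale, so fold changes of the size of Hnf4a were outside each of them.

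Libraries numbered 2 held the highest Hnf4a and Foxa3 of both treatments. With antiCD47 library 2 and IgG library 2 both left out, a check added after seeing the data, the log2 fold changes were 0.56 ± 0.10 for Hnf4a, 0.58 ± 0.11 for Foxa3 and -0.55 ± 0.13 for Foxa2 (SE, n = 3 each). The adjusted p values (edgeR) were 0.0269 for Hnf4a, 0.0290 for Foxa3 and 0.0467 for Foxa2. In the same fit Nr1i2 stood at -0.07 ± 0.08 and Nr1i3 at 0.03 ± 0.10 (SE), neither past the threshold.

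DESeq2 called the same 3 of the 9 (20.5% of all genes called), as did a fit with the library number as a block (15.7% of all genes), and limma voom with sample quality weights called these 3 and Foxa1 (28% of all genes). In the authors' deposited table, which does not state its base group, the adjusted p was 0.00183 for Foxa3, 0.00334 for Foxa2 and 0.00362 for Hnf4a, where 18.4% of the genes with an adjusted p passed 0.05. The other 6 factors had adjusted p values of 0.190 (Foxa1) to 0.991 (Cebpa) in the authors' deposited table, and all 9 signs there matched antiCD47 over IgG in the edgeR fit.

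**Figure D3:**
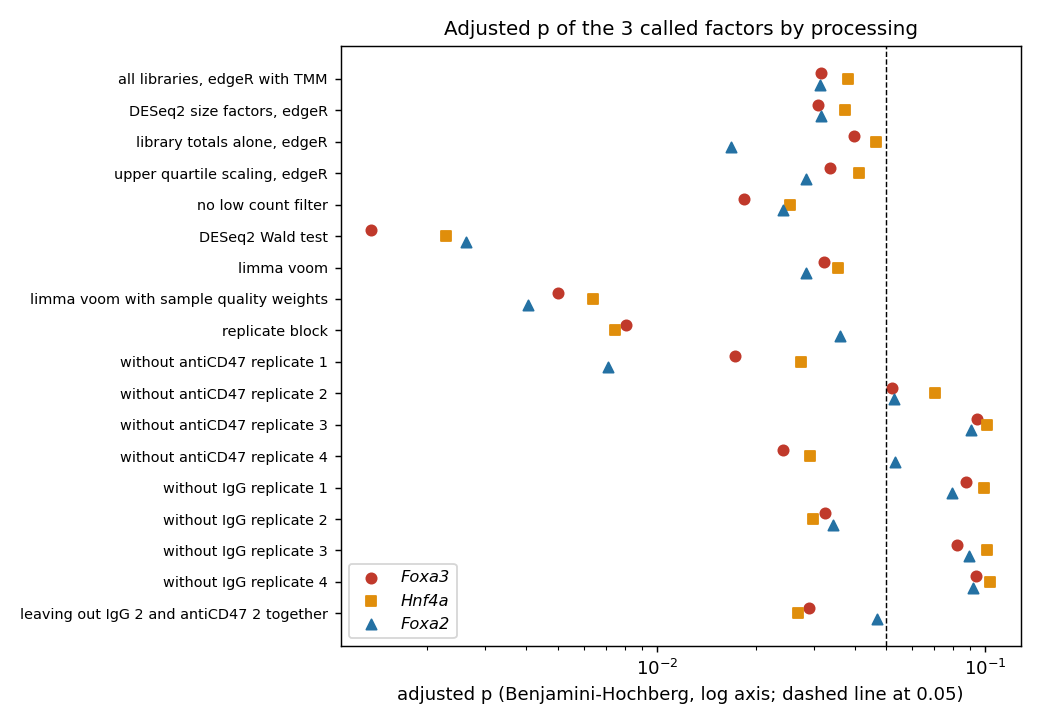
Adjusted p (horizontal log axis, dashed line at 0.05) of Foxa3, Hnf4a and Foxa2 under the edgeR fit to all 8 libraries and 17 other ways of processing, 1 per line. Points right of the line are the fits without antiCD47 library 2 or 3 or without IgG library 1, 3 or 4, and for Foxa2 also without antiCD47 library 4.

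Transcript levels of the factors differ widely within a liver. In CPM per kb of longest transcript, the order in antiCD47 livers was Hnf4a at 172 ± 32.3, Cebpa at 93.5 ± 9.99, Nr1h4 at 54.2 ± 4.73, Nr1i3 at 39.2 ± 4.67, Nr1i2 at 29.7 ± 5.16, Foxa3 at 25.5 ± 5.41, Nr5a2 at 11.02 ± 1.29, Foxa2 at 8.49 ± 1.36 and Foxa1 at 4.54 ± 1.07 (SD, n = 4). In IgG livers these levels were Hnf4a at 116 ± 17.5, Cebpa at 96.8 ± 9.66, Nr1h4 at 49.9 ± 1.62, Nr1i3 at 42.5 ± 6.07, Nr1i2 at 34.5 ± 2.83, Foxa3 at 16.5 ± 2.11, Foxa2 at 11.9 ± 0.836, Nr5a2 at 9.72 ± 0.435 and Foxa1 at 5.90 ± 1.23 (SD, n = 4). Neighbours whose libraries overlapped in antiCD47 livers were Nr1i2 with Foxa3 (22.4 to 34.4 and 20.3 to 32.5 CPM per kb) and Nr5a2 with Foxa2 (9.53 to 12.7 and 7.16 to 10.2 CPM per kb). In IgG livers, Hnf4a and Cebpa overlapped, with a lowest Hnf4a of 98.1 and a highest Cebpa of 105 CPM per kb. Nr1h4 and Nr1i3 also overlapped there, as did Nr1i3 and Nr1i2, while Foxa3, Foxa2, Nr5a2 and Foxa1 were each separate. With the median transcript length in place of the longest, Nr1i3 was at 84.2 CPM per kb in antiCD47 livers and 91.4 in IgG livers, above Nr1h4 in both. Nr5a2 was then at 19.7 CPM per kb in antiCD47 livers, still between Foxa3 and Foxa2. In IgG livers it was at 17.3, above Foxa3 at 16.5. The place of Nr1i3, and that of Nr5a2 in IgG livers, thus depends on the length used.

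To set the factors beside other hepatocyte transcripts, each was expressed against the median log2 CPM of 18 hepatocyte reference genes. They include secreted proteins and amino acid enzymes such as Alb, Ttr, Apob and Hpd. None of the 18 passed edgeR's test, beside 10.8% of all genes (4 had an unadjusted p under 0.05, and DESeq2 called 2 higher and 1 lower). Their median log2 fold change was 0.07. The median that was subtracted stood at 10.97, 11.15, 11.10 and 10.91 in antiCD47 libraries 1 to 4. In IgG libraries 1 to 4 it was mostly lower, at 10.88, 10.94, 10.81 and 10.71. That shift lowered the difference of every factor by the same amount. The difference of antiCD47 from IgG livers was then 0.37 for Hnf4a, 0.42 for Foxa3 and -0.69 for Foxa2 on the log2 scale. Among factors that did not pass, it was -0.59 for Foxa1, -0.43 for Nr1i2, -0.31 for Nr1i3 and -0.25 for Cebpa. Nr1h4 and Nr5a2 stood at -0.08 and -0.02. Libraries of the treatments did not overlap on this scale for Hnf4a, Foxa3, Foxa2 and Nr1i2. The share of all genes without overlap was not computed on this scale, and was 19.6% on the CPM scale. Against the mean of the reference genes, the differences were 0.47 for Hnf4a, 0.51 for Foxa3, -0.59 for Foxa2 and -0.33 for Nr1i2. There the Nr1i2 libraries did overlap, with antiCD47 library 1 at -4.43 above IgG library 1 at -4.50 and IgG library 4 at -4.44. Hnf4a, Foxa3, Foxa2 and Nr1i2 each kept the sign of their CPM difference on both scales. These are descriptions without a test.

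Nearest profiles over the 8 libraries were sought among tested genes with a symbol, leaving out predicted models (Gm and Rik names). The nearest to Foxa3 was Hnf4a, at a root mean square difference of 0.0753 in centred log2 CPM. It was followed by the zinc transporter Slc39a1 (0.0815) and Serpinf2, which encodes the plasmin inhibitor alpha 2-antiplasmin (0.0846). Nearest to Hnf4a were Serpinf2 (0.0717), Foxa3 (0.0753) and the lactate dehydrogenase gene Ldha (0.0766). Nearest to Foxa2 were Tmem8b (0.0794), Ap3m2 (0.0841) and Dynlt1f (0.0908). Among pairs of the 9 factors, Hnf4a with Foxa3 lay closest and Nr1i2 with Nr1i3 next, at 0.152. The other nearest genes were Lrrc8b to Foxa1 (0.107), Cbfb to Cebpa (0.0594), Trmt5 to Nr1h4 (0.0374), Clip1 to Nr5a2 (0.0217), Cenpv to Nr1i2 (0.0478) and Nhej1 to Nr1i3 (0.0641). A gene with a small range over libraries has many near neighbours, and likeness here says nothing of shared function.

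Of 21 other liver-enriched factors, 5 were higher and 1 lower in antiCD47 livers and 15 did not pass (28.6% called, beside 10.8% of all genes), with a median log2 fold change of 0.11, beside -0.01 over all genes. With library totals as the only scaling, where 3581 of 15472 genes passed, 4 were higher and 5 lower. The median was -0.08, where the median of all genes was -0.19. With limma voom and sample quality weights, where 28% of all genes passed, 6 were higher and 4 lower. Prox1, a homeodomain factor of liver development, was measured at 113, 180, 162 and 187 CPM in antiCD47 livers, against 81.9, 122, 85.0 and 87.9 CPM in IgG livers. Only antiCD47 library 1 and IgG library 2 overlapped, and the log2 fold change was 0.77 ± 0.17 (SE; adjusted p = 0.0289, edgeR). Zbtb20 and Zhx2, zinc finger and homeobox repressors of the fetal gene Afp, had log2 fold changes of 0.67 ± 0.11 (SE; adjusted p = 0.0160, edgeR) and 0.54 ± 0.13 (SE; adjusted p = 0.0318, edgeR). With library totals alone Zhx2 stood at 0.35 (adjusted p = 0.0567, edgeR). Also higher were Tbx3, a T-box factor, at 1.12 ± 0.26 (SE; adjusted p = 0.0312, edgeR) and Cebpg, at 0.64 ± 0.14 (SE; adjusted p = 0.0280, edgeR). Dbp, a circadian output factor, averaged 46.0 ± 11.8 CPM in antiCD47 livers and 88.3 ± 9.10 CPM in IgG livers (SD, n = 4 each), at -0.94 ± 0.16 (log2, SE; adjusted p = 0.0174, edgeR).

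Of 33 other nuclear receptors, 1 was higher, 5 were lower and 27 did not pass (18.2% called, beside 10.8% of all genes), with a median log2 fold change of -0.12. With library totals alone, 0 were higher and 10 lower, with a median of -0.30. In that fit 3581 of 15472 genes passed and the median of all genes was -0.19. Nr1h3, the oxysterol receptor LXRα that Kupffer cells also express, averaged 79.7 ± 4.50 CPM in antiCD47 livers and 66.8 ± 2.32 CPM in IgG livers (SD, n = 4 each), a log2 fold change of 0.26 ± 0.06 (SE; adjusted p = 0.0336, edgeR). Its call was lost with upper quartile scaling (0.19, adjusted p = 0.0657, edgeR), with library totals alone (0.07, adjusted p = 0.407) and with no filter on low counts (0.25, adjusted p = 0.0551). Kupffer cell markers were higher alongside it, at 182 to 394 CPM in antiCD47 livers and 64.4 to 146 CPM in IgG livers, and their part was not tested. The 5 lower receptors averaged between 0.979 (Nr4a2) and 17.8 CPM (Esrra) in antiCD47 livers and between 1.73 (Nr4a2) and 26.1 CPM (Esrra) in IgG livers. Thra, a thyroid hormone receptor, had a log2 fold change of -0.63 ± 0.12 (SE; adjusted p = 0.0198, edgeR), Esrra, the estrogen-related receptor of mitochondrial genes, -0.55 ± 0.11 (adjusted p = 0.0250), and Rarb, a retinoic acid receptor, -0.78 ± 0.17 (adjusted p = 0.0264). The mineralocorticoid receptor Nr3c2 stood at -0.68 ± 0.17 (adjusted p = 0.0373, edgeR) and Nr4a2, an immediate early receptor, at -0.82 ± 0.23 (adjusted p = 0.0490, edgeR), which missed the threshold with no filter on low counts (adjusted p = 0.0576) and under limma voom (adjusted p = 0.0648). Rxra, which pairs with FXR, PXR and CAR, averaged 505 ± 32.1 CPM in antiCD47 livers and 443 ± 22.1 CPM in IgG livers (SD, n = 4 each) and did not pass (adjusted p = 0.109, edgeR).

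Of 19 nuclear receptor co-regulators, 2 were higher, 1 was lower and 16 did not pass (15.8% called, beside 10.8% of all genes), with a median log2 fold change of 0.16. With library totals alone (3581 of 15472 genes passed), 0 were higher and 2 lower, with a median of -0.03. With sample quality weights (28% of all genes passed), 6 were higher and 1 lower. Ppargc1a, the coactivator PGC-1α that joins HNF4A at fasting genes, was measured at 6.77, 4.99, 4.63 and 7.43 CPM in antiCD47 livers, against 11.1, 9.64, 14.2 and 12.2 CPM in IgG livers. Every antiCD47 library was below every IgG library, and the log2 fold change was -0.99 ± 0.17 (SE; adjusted p = 0.0176, edgeR). The co-repressor Ncor1 and its complex member Tbl1xr1 had log2 fold changes of 0.33 ± 0.09 (SE; adjusted p = 0.0458, edgeR) and 0.48 ± 0.10 (SE; adjusted p = 0.0240, edgeR), and both calls were lost with library totals alone, at 0.14 (adjusted p = 0.286, edgeR) for Ncor1 and 0.29 (adjusted p = 0.0521, edgeR) for Tbl1xr1. With upper quartile scaling Ncor1 stood at 0.26 (adjusted p = 0.0635, edgeR).

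**Figure D4:**
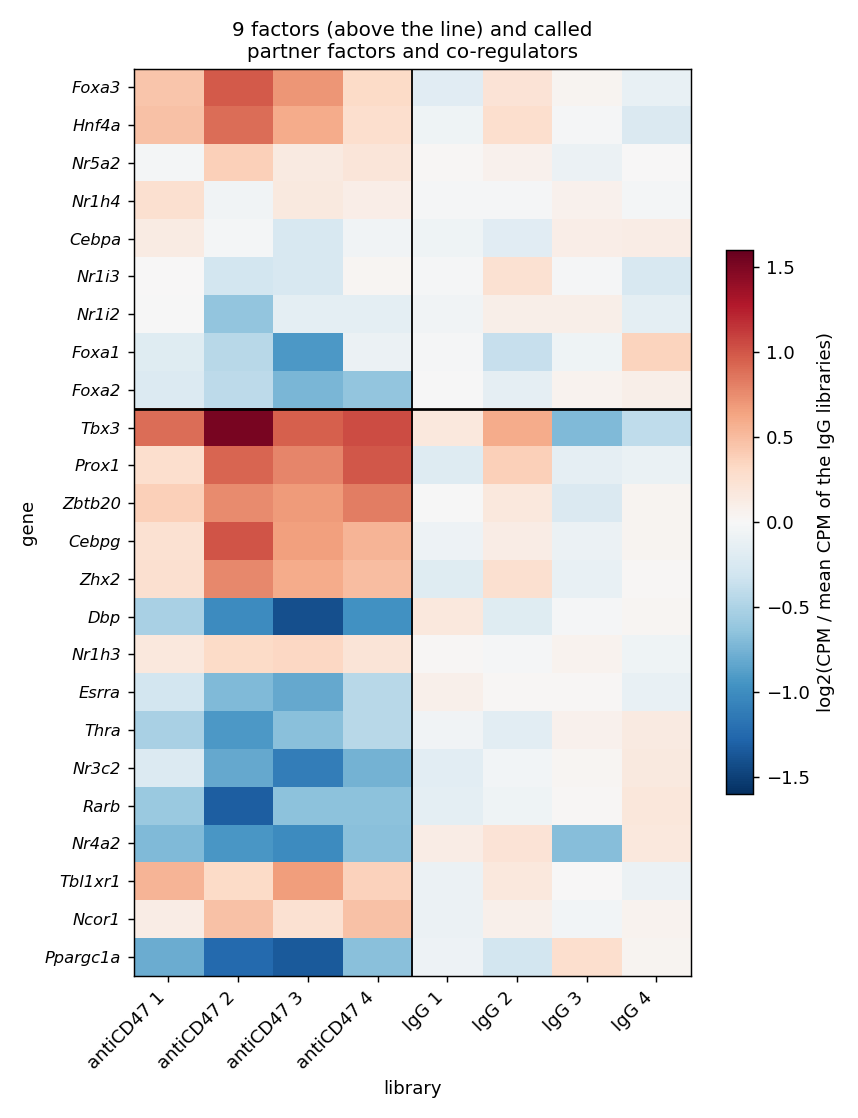
Colour gives log2 of the CPM in a library over the mean CPM of the 4 IgG libraries, red higher and blue lower, for the 9 factors (above the black line) and for the other liver factors, nuclear receptors and co-regulators that passed an adjusted p of 0.05, with antiCD47 libraries in the left 4 columns and IgG libraries in the right 4. Foxa3 and Hnf4a at the top share the deepest red in antiCD47 library 2, and Foxa2 is blue in all 4 antiCD47 libraries.

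Known targets of the factors were counted in lists of 3 to 17 genes, some in several lists. Of 16 genes listed as HNF4A targets, 0 passed in edgeR with all 8 libraries, beside 10.8% of all genes (3 had an unadjusted p under 0.05). At that share a list this short would hold few calls, so 0 does not show that these targets were unchanged. Their median log2 fold change was -0.00048. Other settings called some of them lower, at 3 with library totals alone (median -0.19) and 2 without antiCD47 library 1. The count was 1 with no filter on low counts, with DESeq2 and with the library number as a block. It was also 1 with limma voom, with or without sample quality weights, and at an adjusted p of 0.1 in edgeR. Over all genes, 3581 of 15472 passed with library totals alone, 3630 of 15700 without antiCD47 library 1 and 4331 of 15472 with sample quality weights. The lipoprotein genes Apoa4, Apoc2 and Apob had the smallest p. Apoa4 and Apoc2 had log2 fold changes of -0.87 ± 0.25 (SE; adjusted p = 0.0521, edgeR) and -0.37 ± 0.16 (SE; adjusted p = 0.144, edgeR), and Apob one of 0.27 ± 0.12 (SE; adjusted p = 0.148, edgeR). Nr1i2 and Nr1i3 are also in that list. Of 11 tested FOXA and C/EBP targets, none passed in edgeR with all 8 libraries, beside 10.8% of all genes, which in so short a list would be few. Of these 11, 1 had an unadjusted p under 0.05 and DESeq2 called 0, and their median was 0.12. Called lower were 2 without antiCD47 library 1, 1 with sample quality weights and 1 with library totals alone (median -0.07). Gys2, the liver glycogen synthase, averaged 219 ± 20.7 CPM in antiCD47 livers and 253 ± 17.3 CPM in IgG livers (SD, n = 4 each; adjusted p = 0.118, edgeR), and the coagulation factor gene F9 216 ± 2.87 CPM in antiCD47 livers and 199.6 ± 10.6 CPM in IgG livers (SD, n = 4 each; adjusted p = 0.214, edgeR). G6pc, glucose-6-phosphatase, averaged 116 ± 33.9 CPM in antiCD47 livers and 149.6 ± 36.5 CPM in IgG livers (SD, n = 4 each; adjusted p = 0.287, edgeR).

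Of 9 tested genes that FXR induces, 2 were higher and 7 did not pass (22.2% called, beside 10.8% of all genes), with a median of 0.12. Under library totals alone (3581 of 15472 genes passed), 0 were higher and 1 lower, with a median of -0.05. Baat and Slc27a5, whose enzymes take part in the conjugation of bile acids to glycine or taurine, were the 2 higher. Baat was measured at 209, 266, 240 and 221 CPM in antiCD47 livers, against 183, 200, 186 and 179 CPM in IgG livers, a log2 fold change of 0.32 ± 0.08 (SE; adjusted p = 0.0407, edgeR). Slc27a5 was measured at 558, 627, 574 and 498 CPM in antiCD47 livers, against 486, 477, 432 and 423 CPM in IgG livers, a log2 fold change of 0.31 ± 0.09 (SE; adjusted p = 0.0496, edgeR). Groups did not overlap for either gene. With library totals alone Baat stood at 0.13 (adjusted p = 0.172, edgeR) and Slc27a5 at 0.12 (adjusted p = 0.170, edgeR), and Slc27a5 also missed the threshold with upper quartile scaling (0.25, adjusted p = 0.0718, edgeR) and with no filter on low counts (adjusted p = 0.0567). Nr0b2, the SHP gene that FXR induces most directly, averaged 14.1 ± 5.09 CPM in antiCD47 livers and 17.1 ± 7.31 CPM in IgG livers, and Abcb11, the bile salt export pump, 278 ± 34.7 CPM in antiCD47 livers and 237 ± 30.8 CPM in IgG livers (SD, n = 4 each), and neither passed (adjusted p = 0.611 and 0.192, edgeR). Slc51b, the other gene among the 3 smallest p, stood at -1.08 ± 0.37 (log2, SE; adjusted p = 0.0823, edgeR), and Slc51a was under the filter.

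None of the 3 bile acid genes that FXR signalling represses passed in edgeR, beside 10.8% of all genes, and a list of 3 is too short to compare with that share. Of these, 0 had an unadjusted p under 0.05 and DESeq2 called 0, with a median of -0.01. Cyp7a1, the rate-limiting enzyme of bile acid synthesis, was measured at 109, 63.8, 104 and 100 CPM in antiCD47 livers, against 76.7, 46.4, 92.6 and 98.3 CPM in IgG livers. Libraries numbered 2 were the lowest of each treatment, and the log2 fold change was 0.26 ± 0.23 (SE; adjusted p = 0.459, edgeR). Cyp8b1 stood at -0.17 ± 0.21 (adjusted p = 0.616, edgeR) and Slc10a1, the bile acid uptake transporter NTCP, at -0.01 ± 0.11 (adjusted p = 0.971, edgeR). Of 8 LRH-1 targets, 1 was lower and 7 did not pass (12.5% called, beside 10.8% of all genes), with a median of -0.15. Library totals as the only scaling (3581 of 15472 genes passed) gave 3 lower and a median of -0.34. That gene, Abcg8, 1 partner of the canalicular sterol exporter, averaged 71.2 ± 8.53 CPM in antiCD47 livers and 94.8 ± 4.90 CPM in IgG livers (SD, n = 4 each), a log2 fold change of -0.41 ± 0.09 (SE; adjusted p = 0.0268, edgeR). Its partner Abcg5 averaged 83.9 ± 13.8 CPM in antiCD47 livers and 90.7 ± 9.41 CPM in IgG livers (SD, n = 4 each; adjusted p = 0.530, edgeR), and whether the partners' fold changes differ was not tested.

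Of 17 PXR and CAR targets, 3 were higher, 1 was lower and 13 did not pass (23.5% called, beside 10.8% of all genes), with a median log2 fold change of 0.36. With library totals alone (3581 of 15472 genes passed), 3 were higher and 2 lower, with a median of 0.17. The median was 0.10 without antiCD47 library 3. Cyp2c29 was measured at 299, 953, 499 and 439 CPM in antiCD47 livers, against 176, 239, 126 and 150 CPM in IgG livers. Every antiCD47 library was above every IgG library, with antiCD47 library 2 far above the rest, and the log2 fold change was 1.67 ± 0.33 (SE; adjusted p = 0.0234, edgeR). Cyp2c37 had a log2 fold change of 1.28 ± 0.35 (SE; adjusted p = 0.0446, edgeR), with antiCD47 library 2 at 379 CPM beside 122 to 144 CPM in the other antiCD47 libraries. Without antiCD47 library 2 it was 0.74 on the log2 scale and still passed in edgeR. Its call was lost without antiCD47 library 3 and without any 1 of the IgG libraries, so it passed in 3 of the 8 fits that each left out 1 library. Cyp3a13 had a log2 fold change of 0.58 ± 0.14 (SE; adjusted p = 0.0339, edgeR). Many Cyp2c and Cyp3a genes stand in clusters of similar copies, and such counts are uncertain to the extent that the counting divides shared reads. How far this holds for Cyp3a13 was not tested. Slco1a4, an organic anion uptake transporter, averaged 20.8 ± 6.68 CPM in antiCD47 livers and 40.5 ± 9.08 CPM in IgG livers (SD, n = 4 each), at -0.96 ± 0.23 (log2, SE; adjusted p = 0.0329, edgeR). The usual reporter genes did not pass. Cyp3a11, the main PXR target, stood at 0.17 ± 0.14 (log2, SE; adjusted p = 0.418, edgeR), and Cyp2b10, the main CAR target, averaged 1.28 ± 0.871 CPM in antiCD47 livers and 1.51 ± 0.821 CPM in IgG livers (SD, n = 4 each; adjusted p = 0.791, edgeR).

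**Figure D5:**
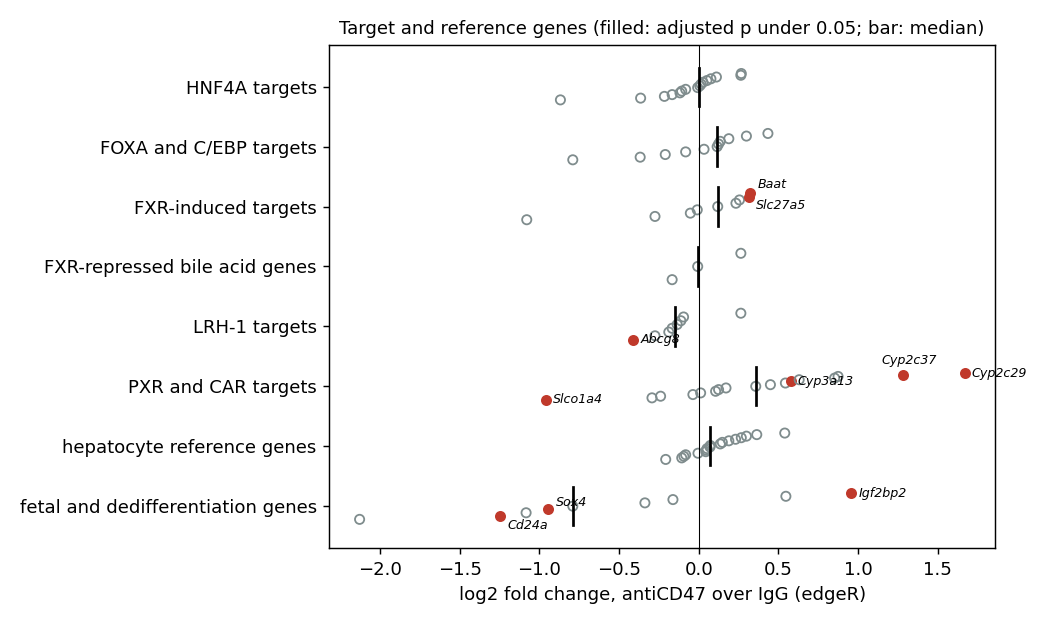
Log2 fold change of antiCD47 over IgG livers (horizontal axis, edgeR) for each gene of the target, reference and fetal lists, 1 list per line, with filled red points named where the adjusted p was under 0.05 and a black bar at the list's median. Of the target genes, 7 points are filled, and Cyp2c29 and Cyp2c37 lie farthest right.

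Of 9 tested genes of fetal or dedifferentiated hepatocytes, 1 was higher, 2 were lower and 6 did not pass (33.3% called, beside 10.8% of all genes), with a median log2 fold change of -0.79. Library totals as the only scaling (3581 of 15472 genes passed) gave 1 higher, 5 lower and a median of -0.97. Dlk1, Igf2bp1 and Igf2bp3 were under the filter. Sox4, a SOX factor, averaged 6.56 ± 1.34 CPM in antiCD47 livers and 12.6 ± 2.15 CPM in IgG livers (SD, n = 4 each), at -0.94 ± 0.17 (log2, SE; adjusted p = 0.0176, edgeR). Cd24a, a surface protein, averaged 13.3 ± 6.12 CPM in antiCD47 livers and 31.7 ± 6.31 CPM in IgG livers (SD, n = 4 each), at -1.25 ± 0.28 (log2, SE; adjusted p = 0.0280, edgeR). Both genes are also expressed by bile duct cells, whose markers were lower as given above, and their part was not tested. Igf2bp2, an RNA-binding protein gene, went the other way at 0.96 ± 0.23 (log2, SE; adjusted p = 0.0352, edgeR), and missed the threshold under limma voom (0.89, adjusted p = 0.0508). H19, the imprinted fetal RNA, was measured at 10.4, 0.544, 5.82 and 3.03 CPM in antiCD47 livers, against 15.0, 30.6, 22.5 and 18.8 CPM in IgG livers. Its groups did not overlap, and it missed the threshold at -2.13 ± 0.60 (log2, SE; adjusted p = 0.0510, edgeR), while Afp, which FOXA and C/EBP activate in fetal liver, stood at -0.79 ± 0.49 (log2, SE; adjusted p = 0.288, edgeR).

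The calls depended on which libraries were included. Without antiCD47 library 3 or without IgG library 1, 3 or 4, none of the 3 called factors kept an adjusted p under 0.05 (edgeR). The same held for the liver factors, nuclear receptors, co-regulators, target genes and fetal genes named above as higher or lower. Each kept its sign, and the cell type markers were not followed in these fits. Over the whole table the calls were 21 without antiCD47 library 3, 174 without IgG library 1, 92 without IgG library 3 and 2 without IgG library 4, beside 1678 with all libraries. They were 3630 without antiCD47 library 1 and 1598 without IgG library 2, and in both of these fits Hnf4a, Foxa3 and Foxa2 all passed. They were 756 without antiCD47 library 2, where none of the 9 factors passed, and 1653 without antiCD47 library 4, where Hnf4a and Foxa3 passed. With antiCD47 library 2 and IgG library 2 both left out, where 1090 genes passed, Nr1h3, Nr3c2, Esrra, Nr4a2, Ncor1, Slc27a5, Slco1a4 and Igf2bp2 missed the threshold, at adjusted p values of 0.0515 (Igf2bp2) to 0.158 (Nr4a2).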

How the data were processed

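Polyadenylated RNA of 8 liver libraries was sequenced with Illumina TruSeq preparation, per the labels' protocols. The authors' deposited count table holds expected counts per Ensembl gene, as unnormalized whole numbers. Salmon 1.3.0, DESeq2 1.32.0 and the GRCm39 build are named, without their roles, in GEO's record, per the submitters' processing notes. The authors' deposited comparison table holds a log2 fold change, a p-value and adjusted p-value, a mean normalized signal and a rank score, per the file headers, and only its signs and adjusted p-values were used. Symbols came from that table for 14362 genes and from a reference table for 37139. 0 columns of values were left unused.

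The 9 genes and the other lists were chosen with earlier results of these data known. Of 54309 genes, 27899 had no count. Genes were filtered with filterByExpr, scaled with TMM and compared with edgeR 4.0.16 (glmQLFit and glmQLFTest, two-sided, R 4.3.3), with Benjamini-Hochberg adjustment over 15472 genes and a threshold of 0.05. The fitted common dispersion of 0.028 equals a coefficient of variation of 16.7% between libraries. Intervals are 95%, from the t distribution of the quasi-likelihood fit. Named genes were the 9 factors, in each list the genes past the threshold with up to 3 of smallest p, and the 3 nearest profiles of each factor (log2 CPM with a prior count of 2). A few further list genes with well known roles (Rxra, Nr0b2, Abcb11, Abcg5, Cyp3a11, Cyp2b10 and Afp) were named after their values were seen. Alternatives used DESeq2 1.42.0, limma 3.58.1 and other scalings, filters and sets of libraries. Counts of same-treatment libraries differed by a chi-square of at least 24.2 per degree of freedom, so no library was counted as a repeat of another. Transcript lengths came from a GRCm38 annotation. Tf, G6pc1 and Hbb-bs matched no gene in the count table by symbol and were not analysed here. A few listed genes and 1 motif are not reported here and were left out of the list counts.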

Additional observations from a re-analysis of the deposited data

Results flagged for a closer look

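In 7 of 98 sets of 4 libraries (1 gene in 1 treatment), 1 library lay far from the other 3 by a gap test that chance passes in about 1 in 20 sets. Among the 9 factors this was Nr1h4 in IgG library 3, at 105 CPM beside 98.05 to 99.3 CPM in the other IgG libraries. In antiCD47 library 2, Cyp2c37 was at 379 CPM beside 122 to 144 CPM in the other antiCD47 libraries, Serpina1c at 4640 CPM beside 2754 to 2870 CPM, and Rarb at 2.26 CPM beside 3.56 to 3.70 CPM. In IgG library 2, Prox1 was at 122 CPM beside 81.9 to 87.9 CPM in the other IgG libraries and Ass1 at 1172 CPM beside 1049 to 1061 CPM. In IgG library 3, Nr4a2 was at 1.08 CPM beside 1.87 to 2.02 CPM in the other IgG libraries.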

How the results depend on the processing

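With all 8 libraries, 1678 genes passed and 3 of the 9 factors. Counts of genes past the threshold were 3581 with library totals alone, 3174 with DESeq2, 4331 with limma voom and sample quality weights, 3574 at an adjusted p of 0.1, and 1090 with antiCD47 library 2 and IgG library 2 both left out (chosen after seeing the data), and the cause was not tested. Leaving out 1 library at a time gave 2 to 3630 genes and 0 to 4 of the 9 factors. Hnf4a and Foxa3 each kept their sign in all 17 alternatives and passed in 12, and Foxa2 kept its sign in all 17 and passed in 11. Foxa1 passed with sample quality weights only (-0.61, adjusted p = 0.0374, limma). Signs turned for values that had not passed. With library totals alone, Nr1h4 stood at -0.0651, Nr5a2 at -0.00799 and F9 at -0.0693. With 1 library left out, Cebpa ran from -0.113 to 0.0133, Cyp8b1 from -0.298 to 0.0489 and Slc10a1 from -0.0858 to 0.0462. Nr1i3 stood at 0.0271 without both libraries numbered 2, and Nr5a2 differed by 0.0734 against the mean of the hepatocyte reference genes and by -0.0244 against their median. The treatments share library numbers 1 to 4, which are not stated to be pairs and were not taken as pairs. Over all genes, correlations of same-numbered deviations were 0.03, 0.16, -0.02 and 0.03, and only antiCD47 library 2 correlated best with its own number. With the number as a replicate block, 2425 genes passed and the same 3 of the 9 factors. The SE in that fit was 0.065 for Hnf4a, 0.073 for Foxa3 and 0.116 for Foxa2, beside 0.146, 0.148 and 0.113 without the block. Whether the numbers pair for these genes was not tested. The 9 factors had at least 487 counts per library.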
